A study of Homo sapiens with 60 samples.

Results

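The aryl hydrocarbon receptor (AhR) battery was followed through 6 genes: the cytochrome P450 genes CYP1A1 and CYP1B1, the feedback genes AHRR and TIPARP, the receptor gene AHR and its partner gene ARNT. They were chosen by name, as the rows of the count table whose Ensembl identifiers map to those symbols, which gave 6 of 60675 genes. All 6 were among the 17256 genes that passed the filter on low counts. The cells were A549, a human lung adenocarcinoma line, collected after 24 h. The groups were a vehicle, labelled 0.1% DMSO (2% in the description of the series), and extracts made with hot water, each labelled 500, 100 and 20 µg/mL. The labels give no DMSO content for the extract groups, and the part of the solvent in differences from vehicle was not tested. Soyo-san, Okbyeongpung-san, Guibi-tang, Saengmaek-san and Soshiho-tang are decoctions of several herbs, and Saposhnikoviae Radix and Menthae Herba are single herbs. Each group had 3 libraries, except Soshiho-tang with 1 per dose. By traditional recipe Soyo-san contains Menthae Herba and Okbyeongpung-san contains Saposhnikoviae Radix, in amounts that the labels do not give. The description of the series also says that extracts more toxic than the top dose allows were given at lower concentrations, while the labels print the same 3 doses for every extract.

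AhR is a ligand-activated transcription factor of the bHLH-PAS family that waits in the cytoplasm in a complex with HSP90 and the co-chaperone p23. Planar aromatic compounds, including many from plants, bind it, and it then enters the nucleus, pairs with ARNT and binds a short DNA element. CYP1A1 and CYP1B1 encode enzymes that oxidise such compounds, which makes them the usual readouts of the pathway in lung epithelium. AHRR encodes a repressor that competes with AhR for ARNT, and TIPARP encodes a mono-ADP-ribosyltransferase that promotes loss of the AhR protein, so both close a feedback loop.

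In GENCODE 29 on GRCh38, CYP1A1 (ENSG00000140465) lies at chr15:74719542-74725610 on the minus strand and CYP1B1 (ENSG00000138061) at chr2:38066973-38109902 on the minus strand. AHRR (ENSG00000063438) lies at chr5:304176-438291 and TIPARP (ENSG00000163659) at chr3:156673235-156706770, both on the plus strand. AHR (ENSG00000106546) lies at chr7:16916359-17346152 on the plus strand and ARNT (ENSG00000143437) at chr1:150809705-150876768 on the minus strand. The core of the element that AhR and ARNT bind is GCGTG. It was searched on both strands, as GCGTG or CACGC, in the 250 bases before each RefSeq start (GRCh38.p14), and 5 of the 6 members, all but CYP1B1, were matched by symbol. CYP1A1 had 1 match, the first of 2 AHRR starts had 1, the first of 3 TIPARP starts had 2, and the other TIPARP windows and those of AHR and ARNT had 0. Of all 35116 such windows, 32.2% held at least 1 match, so a match is a description of these letters and no more. Those 4 matches are shown because GCGTG is the core that AhR and ARNT are known to bind, with 12 bases on each side, 5′ to 3′ on the strand of the gene and the core in capitals.
CYP1A1, chr15:74725569-74725597, core 57 bases before the start: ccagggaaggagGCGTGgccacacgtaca
AHRR, chr5:321672-321700, core 30 bases before the start: ggcgggcggctcGCGTGccggggtggggc
TIPARP, chr3:156674370-156674398, core 208 bases before the start: cgcgagaaaggaCACGCcccctcgcggga
TIPARP, chr3:156674436-156674464, core 142 bases before the start: cgaacgaacgcgCACGCgcgcgcaggggg
The second AHRR start had 2 matches, not shown. The longer form TNGCGTG or its reverse complement CACGCNA, which 4.52% of all windows held, was found in the first AHRR window and in no other window of the 5 matched members.

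Library totals ran from 18330592 to 35308791 counts. Levels are counts scaled to the library total (CPM), and since no length scale was used they compare groups for 1 gene and not genes with each other. Mitochondrially encoded genes took a share that was 10.71 to 13.86% in the first 31 libraries by library number and 12.92 to 22.15% in the other 29. Vehicle and both herbs lay wholly among the first 31, and Soyo-san, Okbyeongpung-san and Soshiho-tang wholly among the last 29, so for these 3 a difference from vehicle cannot be told apart from this step, while 500 against 20 of the same extract lies on 1 side of it. Saengmaek-san and Guibi-tang had libraries on both sides. Saengmaek-san replicate 3, after the step at each dose, stood apart from replicates 1 and 2 (chi-square per degree of freedom over genes 34.4 to 66.36, against 2.723 to 3.958 between those 2), and no member was called in Saengmaek-san with or without it. Soyo-san replicate 1 also stood apart from replicates 2 and 3, at 500 (21.85 and 15.59, against 2.942 between those 2) and at 100 (20.08 and 17.47, against 2.936). At 500 its mitochondrial share was 19.42%, beside 14.3 and 15.07% in replicates 2 and 3. The Soyo-san calls of CYP1A1, CYP1B1 and TIPARP at 500 against 20 were kept in each of the 6 fits without 1 library. The epithelial markers KRT8 (2660 to 3640 CPM) and KRT18 (2230 to 2880 CPM) were high in every library, EPCAM was lower (3.76 to 6.23 CPM), and the leucocyte markers PTPRC and CD3E were at 0 in 54 and 60 of the 60 libraries. The alveolar type 2 marker SFTPC did not exceed 0.129 CPM. COL1A1 (25.9 to 40.7 CPM) and CD68 (6.63 to 19 CPM), genes of other lineages, were present in every library, while COL1A2 was at 0 in 47.

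Menthae Herba at 500 µg/mL raised all 4 target and feedback genes, CYP1A1 most, and lowered AHR. Soyo-san and Saposhnikoviae Radix at 500 raised CYP1A1, CYP1B1 and TIPARP by less, against vehicle and against their own 20 µg/mL libraries. Guibi-tang and Okbyeongpung-san at 500 differed from vehicle in CYP1B1 alone, higher by 0.16 and 0.20 on the log2 scale. The Guibi-tang call was lost in 3 of 6 fits without 1 library, and Okbyeongpung-san, whose difference from vehicle cannot be told apart from the step, was not called against its own 20 µg/mL libraries. Saengmaek-san moved no member past the test. Only Menthae Herba and Saposhnikoviae Radix had a member called at 100 µg/mL, and no member was called at 20 µg/mL. ARNT was called in none of the 36 comparisons of this fit. Throughout, a gene was called at a Benjamini-Hochberg adjusted p under 0.05, over all genes tested, in 1 edgeR quasi-likelihood fit of 57 libraries.

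**Figure D1:**
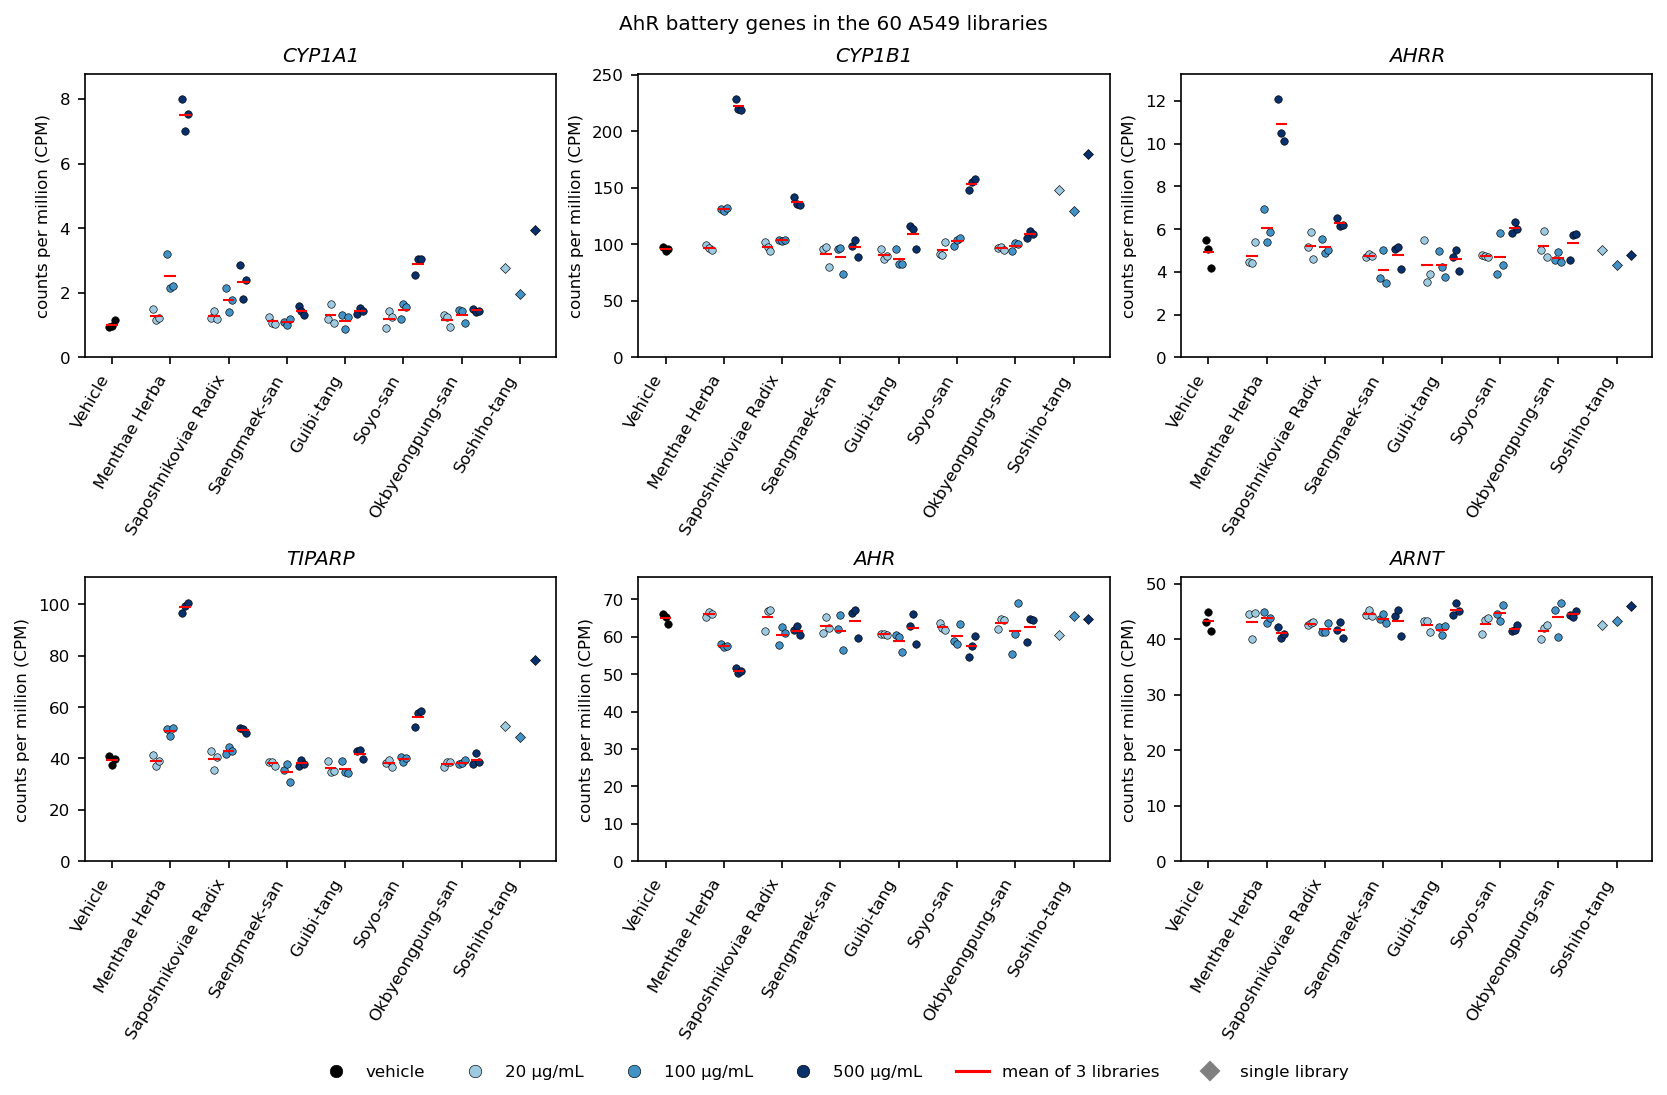
CPM (y axis, linear, from 0, a scale of its own for each gene) in each of the 60 libraries by extract (x axis), with points coloured by dose, red bars at the mean of 3 libraries and diamonds for the single Soshiho-tang libraries. The Menthae Herba libraries at 500 µg/mL stand above the rest for CYP1A1, CYP1B1, AHRR and TIPARP and lowest for AHR, where they lie between 50.4 and 51.6 CPM.

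Against vehicle at 500 µg/mL, Menthae Herba had 4 members higher and 1 lower, where 6.77% of all genes tested were called. Saposhnikoviae Radix had 3 higher, beside 1.56% of all genes. Soyo-san had 3 higher, beside 6.03% of all genes. Guibi-tang had 1 higher, beside 4.42%, and Okbyeongpung-san had 1 higher, beside 3.39%. For Saengmaek-san edgeR called 0 members, beside 0.614% of all genes, 1 member (CYP1A1) was under an unadjusted p of 0.05, and DESeq2 called 0 of the other 5 and gave CYP1A1 no adjusted p.

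At 100 µg/mL against vehicle, Menthae Herba had 3 members higher and 1 lower, beside 0.974% of all genes called. Saposhnikoviae Radix had 1 higher, beside 0.666%. In edgeR the other 4 extracts had 0 members called, beside 1.77% (Soyo-san), 1.37% (Okbyeongpung-san), 0.666% (Saengmaek-san) and 1.41% (Guibi-tang) of all genes. At an unadjusted p under 0.05 the counts of these 4, in that order, were 2, 0, 1 and 2, and DESeq2 called 1 member, CYP1B1 in Soyo-san (log2 fold change 0.13, adjusted p = 0.0467), and 0 in the other 3, with no adjusted p for CYP1A1 in Guibi-tang.

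At 20 µg/mL against vehicle edgeR called 0 members in each of the 6 extracts, 0 were under an unadjusted p of 0.05, and DESeq2 called 0, with no adjusted p for CYP1A1 in Soyo-san and Okbyeongpung-san. The share of all genes called at this dose was 0.382% for Menthae Herba, 0.991% for Saposhnikoviae Radix and 0.452% for Saengmaek-san. It was 1.35% for Guibi-tang, 1.99% for Soyo-san and 1.09% for Okbyeongpung-san. The 20 µg/mL libraries of Soyo-san and Okbyeongpung-san lay after the step in mitochondrial share. No member of these was called against vehicle, with CYP1A1 differences of 0.28 ± 0.204 and 0.24 ± 0.208 (SE) on the log2 scale. In Menthae Herba and Saposhnikoviae Radix, wholly before the step, the CYP1A1 differences at 20 were 0.32 ± 0.2 and 0.30 ± 0.2. Guibi-tang and Saengmaek-san, with libraries on both sides of the step, had 0.40 ± 0.2 and 0.16 ± 0.206. The part of the step in these values was not tested.

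Within an extract, 500 against 20 µg/mL called 4 members higher and 1 lower for Menthae Herba (2.43% of all genes), 3 higher for Saposhnikoviae Radix (0.0811%), 3 higher for Soyo-san (0.614%) and 1 higher for Guibi-tang (0.997%). In edgeR it called 0 members for Saengmaek-san (0% of all genes) and for Okbyeongpung-san (0.0985%), where 0 and 1 members were under an unadjusted p of 0.05 and DESeq2 called 0 in both. In Saposhnikoviae Radix 14 of the 17256 genes were called in all, and 3 of these 14 were CYP1A1, CYP1B1 and TIPARP. For 100 against 20 µg/mL Menthae Herba had 3 members higher, beside 0.029% of all genes, which is 5 genes in all. The other 5 extracts had 0 members called by edgeR and 0 by DESeq2, beside 0% for Saposhnikoviae Radix, Saengmaek-san and Okbyeongpung-san and 0.0058% for Guibi-tang and Soyo-san. At an unadjusted p under 0.05, Saposhnikoviae Radix had 3 members and Soyo-san 1 in that comparison, and Saengmaek-san, Guibi-tang and Okbyeongpung-san had 0. The vehicle and the 20 µg/mL groups are shared between these comparisons, so their counts are not independent of each other.

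CYP1A1, the classical inducible P450 of the pathway, was scarce in these cells. In vehicle it had 0.93, 0.963 and 1.16 CPM, which rested on 27 to 35 counts. With Menthae Herba at 500 µg/mL it had 7.99, 7.0 and 7.54 CPM (7.51 ± 0.497, SD, n = 3), every library above all others of the series. The edgeR log2 fold change against vehicle was 2.84 ± 0.167 (SE), a 7.14-fold rise with adjusted p = 1.728e-17. At 100 µg/mL the levels were 3.19, 2.14 and 2.21 CPM and at 20 µg/mL 1.49, 1.15 and 1.21 CPM. Only the 20 µg/mL libraries overlapped vehicle, and the 3 doses did not overlap each other. The rise at 100 against vehicle was 1.26 ± 0.182 (adjusted p = 5.249e-05) on the log2 scale, and 100 against 20 gave 0.94 ± 0.182 (adjusted p = 0.0259). The latter call was lost without Menthae Herba 100 replicate 1 (0.73, adjusted p = 0.725), without Menthae Herba 20 replicate 2 (0.87, adjusted p = 0.435) and without Menthae Herba 20 replicate 3 (0.90, adjusted p = 0.351).

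Among the groups of 3 libraries, CYP1A1 was next highest with Soyo-san at 500 µg/mL, at 2.54, 3.06 and 3.04 CPM. Soyo-san gave 1.2, 1.66 and 1.55 CPM at 100 and 0.907, 1.44 and 1.26 CPM at 20. The top dose lay above both lower doses, which overlapped each other. Against 20 the log2 fold change was 1.25 ± 0.183 (adjusted p = 1.309e-05) and against vehicle 1.53 ± 0.179 (adjusted p = 4.111e-08). Saposhnikoviae Radix gave 2.85, 1.8 and 2.38 CPM at 500, 2.16, 1.4 and 1.79 CPM at 100 and 1.21, 1.44 and 1.2 CPM at 20. Here each dose overlapped the next, while 500 and 20 were apart, and all 3 doses lay above the vehicle libraries. The log2 fold changes were 1.19 ± 0.182 at 500 (adjusted p = 0.0001033) and 0.79 ± 0.189 at 100 (adjusted p = 0.0311) against vehicle, and 0.88 ± 0.182 at 500 against 20 (adjusted p = 0.026).

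The CYP1A1 calls of Saposhnikoviae Radix at 100 against vehicle and at 500 against 20 were each lost in 5 of the 6 fits without 1 library. At 100 against vehicle the adjusted p rose to 0.141, 0.165 and 0.0533 without vehicle replicate 1, 2 or 3, and to 0.276 and 0.103 without Saposhnikoviae Radix 100 replicate 1 or 3. At 500 against 20 it rose to 0.547 and 0.102 without Saposhnikoviae Radix 500 replicate 1 or 3, and to 0.165, 0.0841 and 0.238 without Saposhnikoviae Radix 20 replicate 1, 2 or 3.

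In the remaining decoctions with 3 libraries per dose CYP1A1 at 500 µg/mL had 1.59, 1.42 and 1.32 CPM (Saengmaek-san), 1.35, 1.54 and 1.43 CPM (Guibi-tang) and 1.5, 1.41 and 1.45 CPM (Okbyeongpung-san). All 9 libraries lay above the highest vehicle library and none of the 3 comparisons with vehicle was called, with log2 fold changes of 0.51 ± 0.195, 0.48 ± 0.2 and 0.53 ± 0.197 and adjusted p = 0.319, 0.182 and 0.137. The mean mitochondrial share in these groups was 13.79, 13.19 and 14.56% against 12.31% in vehicle, and its part in the CYP1A1 values was not tested. Among groups of 3 libraries, the order for CYP1A1 by mean level at 500 µg/mL was Menthae Herba, Soyo-san, Saposhnikoviae Radix, Okbyeongpung-san, Saengmaek-san, Guibi-tang and vehicle. Neighbours overlapped between Soyo-san and Saposhnikoviae Radix and among the 3 that follow.

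CYP1B1, the P450 that also hydroxylates estrogens, was measured on 1428 to 5370 counts per library and so more precisely than CYP1A1. In vehicle it had 97.2, 94.5 and 95.5 CPM, and with Menthae Herba at 500 µg/mL 228, 220 and 218 CPM. The Menthae Herba levels were 131, 130 and 132 CPM at 100 and 99.8, 96.5 and 94.9 CPM at 20 µg/mL. The 3 doses were apart from each other and only the lowest overlapped vehicle. The log2 fold changes against vehicle were 1.17 ± 0.0426 (2.25-fold, adjusted p = 3.145e-25) at 500 and 0.41 ± 0.0426 (adjusted p = 2.509e-08) at 100, and at 20 the difference was -0.0042 ± 0.0429.

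With Saposhnikoviae Radix CYP1B1 had 142, 135 and 135 CPM at 500, 104, 103 and 104 CPM at 100, and 102, 97.5 and 94.2 CPM at 20 µg/mL. At 500 all 3 libraries lay above every lower-dose library, a log2 fold change of 0.47 ± 0.0428 against 20 (adjusted p = 3.958e-10) and 0.48 ± 0.0425 against vehicle (adjusted p = 2.886e-10). Soyo-san had 148, 156 and 158 CPM at 500, 99.0, 104 and 106 CPM at 100 and 91.6, 90.3 and 102 CPM at 20. Its top dose was likewise apart from the lower 2, with log2 fold changes of 0.69 ± 0.0428 against 20 (adjusted p = 3.201e-16) and 0.72 ± 0.0425 against vehicle (adjusted p = 5.382e-17). In Saposhnikoviae Radix and Soyo-san 100 against 20 gave CYP1B1 differences of 0.09 ± 0.0429 and 0.10 ± 0.0432, neither called (adjusted p = 1 in both).

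CYP1B1 differed least from vehicle in the other decoctions with 3 libraries per dose. Okbyeongpung-san had 106, 112 and 109 CPM at 500 µg/mL, above all vehicle libraries (log2 fold change 0.20 ± 0.0428, adjusted p = 0.003027), and 96.8, 97.7 and 94.9 CPM at 20. Its 500 against 20 difference of 0.15 ± 0.0432, which lies on 1 side of the step in mitochondrial share, was not called (adjusted p = 0.443). Guibi-tang had 116, 114 and 96.1 CPM at 500 and 95.8, 87.0 and 89.4 CPM at 20, with replicates 1 and 2 at 500 and replicate 1 at 20 before the step in mitochondrial share and the others after it. The third library at 500 lay inside the vehicle range. The Guibi-tang calls were 0.16 ± 0.0429 against vehicle (adjusted p = 0.0156) and 0.19 ± 0.0432 against 20 (adjusted p = 0.0133). Both ended when only the groups compared were fitted (adjusted p = 0.162 and 0.693), and 500 against 20 was 0.20 (adjusted p = 0.0503) among the first 31 libraries and 0.11 (adjusted p = 1) among the last 29. Against vehicle CYP1B1 also was no longer called without vehicle replicate 2 (adjusted p = 0.0807) and without Guibi-tang 500 replicate 1 (0.159) or 2 (0.0772). Against 20 the call was lost without Guibi-tang 500 replicate 1 (0.209) or 2 (0.0858) and without Guibi-tang 20 replicate 2 (0.0628) or 3 (0.117). Saengmaek-san had 98.9, 104 and 89.2 CPM at 500, around the vehicle values, with a log2 difference of 0.03 ± 0.0428 (95% interval -0.06 to 0.11).

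AHRR, the AhR repressor, had 5.47, 5.07 and 4.2 CPM in vehicle and 12.1, 10.51 and 10.1 CPM with Menthae Herba at 500 µg/mL. At 100 it had 6.95, 5.41 and 5.86 CPM and at 20 4.47, 4.4 and 5.39 CPM. The 500 µg/mL libraries stood above all others, while 1 of the 3 libraries at 100 lay inside the vehicle range. The log2 fold change at 500 was 1.11 ± 0.117 (2.16-fold, adjusted p = 2.82e-09) against vehicle and 1.19 ± 0.121 (adjusted p = 1.184e-09) against 20, and at 100 against vehicle 0.26 ± 0.122 (adjusted p = 0.394).

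AHRR was not called in the 2 other tested extracts in which the P450 genes rose. It had 6.54, 6.16 and 6.19 CPM with Saposhnikoviae Radix and 5.81, 6.35 and 6.0 CPM with Soyo-san at 500 µg/mL. All 6 libraries lay above the highest vehicle library, and how many of all genes did so was not counted. The log2 fold changes against vehicle were 0.31 ± 0.122 (95% interval 0.08 to 0.55, adjusted p = 0.202) and 0.34 ± 0.122 (0.10 to 0.58, adjusted p = 0.0918). Soyo-san and vehicle lay on opposite sides of the step in mitochondrial share. At 500 against 20 AHRR differed by 0.26 in Saposhnikoviae Radix and 0.34 in Soyo-san (adjusted p = 0.388 in Soyo-san), neither called. In Saengmaek-san, Guibi-tang and Okbyeongpung-san at 500 its log2 differences from vehicle were -0.03, -0.12 and 0.14, with SEs of 0.125 to 0.129. AHRR counts ran from 67 to 281 per library, so its differences carry a larger SE than those of CYP1B1 or TIPARP.

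TIPARP, the AhR-directed ADP-ribosyltransferase, had 40.8, 37.4 and 39.6 CPM in vehicle. Menthae Herba took it to 96.7, 99.5 and 100.4 CPM at 500, 51.3, 48.6 and 52.0 CPM at 100 and 41.4, 37.1 and 38.9 CPM at 20 µg/mL. As for CYP1B1 the doses did not overlap each other, and the lowest overlapped vehicle. The log2 fold changes against vehicle were 1.29 ± 0.0512 (2.45-fold, adjusted p = 6.327e-24) at 500 and 0.33 ± 0.0523 (adjusted p = 0.0002917) at 100. Soyo-san gave 52.3, 57.7 and 58.6 CPM at 500 and 38.2, 39.6 and 36.7 CPM at 20 (log2 fold change 0.55 ± 0.053, adjusted p = 5.796e-10). Saposhnikoviae Radix gave 51.7, 51.5 and 49.7 CPM at 500 and 43.0, 35.7 and 40.5 CPM at 20 (0.34 ± 0.0529, adjusted p = 0.0004436). In both extracts the libraries at 500 lay above all those at 20 and all vehicle libraries. Guibi-tang (42.7, 43.1 and 39.8 CPM), Okbyeongpung-san (37.8, 42.1 and 38.6 CPM) and Saengmaek-san (37.2, 39.6 and 38.0 CPM) at 500 overlapped vehicle, with log2 differences of 0.07 ± 0.0534, 0.02 ± 0.0532 and -0.04 ± 0.0531.

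AHR itself fell with Menthae Herba. It had 66.2, 65.3 and 63.4 CPM in vehicle, 65.3, 66.6 and 66.1 CPM at 20, 58.2, 57.3 and 57.4 CPM at 100 and 51.6, 50.4 and 50.8 CPM at 500 µg/mL. The 3 libraries at 500 lay below those at 100, and these lay below vehicle and the lowest dose. The log2 fold changes against vehicle were -0.39 ± 0.0507 (adjusted p = 3.759e-07) at 500 and -0.21 ± 0.05 (adjusted p = 0.0227) at 100, and -0.39 ± 0.0512 at 500 against 20 (adjusted p = 5.752e-07). The call at 100 was lost on leaving out any of its 6 libraries, with adjusted p = 0.06 to 0.12: 0.102, 0.12 and 0.06 without vehicle replicate 1, 2 and 3, and 0.0769, 0.0961 and 0.101 without Menthae Herba 100 replicate 1, 2 and 3.

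In the other 2 tested extracts with a CYP1A1 rise AHR was lower than vehicle at 500 µg/mL without a call. Soyo-san had 54.5, 57.4 and 60.3 CPM (log2 difference -0.14 ± 0.05, adjusted p = 0.078) and Saposhnikoviae Radix 61.7, 62.8 and 60.4 CPM (-0.12 ± 0.0499, adjusted p = 0.235), all 6 below the lowest vehicle library. When only the groups compared were fitted both passed, with adjusted p = 0.0267 and 0.0157. The Soyo-san libraries lay after the step in mitochondrial share and the vehicle libraries before it. At 500 against 20 the AHR difference was -0.14 in Soyo-san (adjusted p = 0.388) and -0.10 in Saposhnikoviae Radix. Neither of these was called in the main fit or in any other setting. Saengmaek-san, Guibi-tang and Okbyeongpung-san at 500 overlapped vehicle, with log2 differences of -0.01, -0.08 and -0.04. AHR levels wholly below vehicle were also seen without a CYP1A1 call, in Guibi-tang at 100 (55.95 to 60.5 CPM) and at 20 (60.46 to 60.86 CPM). How many of all genes lay wholly outside the vehicle range was not counted. ARNT, the obligate partner of AhR, ran from 40.1 to 46.5 CPM over all 60 libraries. At 500 µg/mL all groups of 3 overlapped their neighbours in the order of means, from 45.3 ± 1.08 CPM (Guibi-tang) to 41.1 ± 0.97 CPM (Menthae Herba), with 43.2 ± 1.74 CPM in vehicle. The log2 difference of Menthae Herba from vehicle was -0.12 ± 0.0504 (adjusted p = 0.18), and it passed when only the first 31 libraries were fitted (-0.11, adjusted p = 0.0391).

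**Figure D2:**
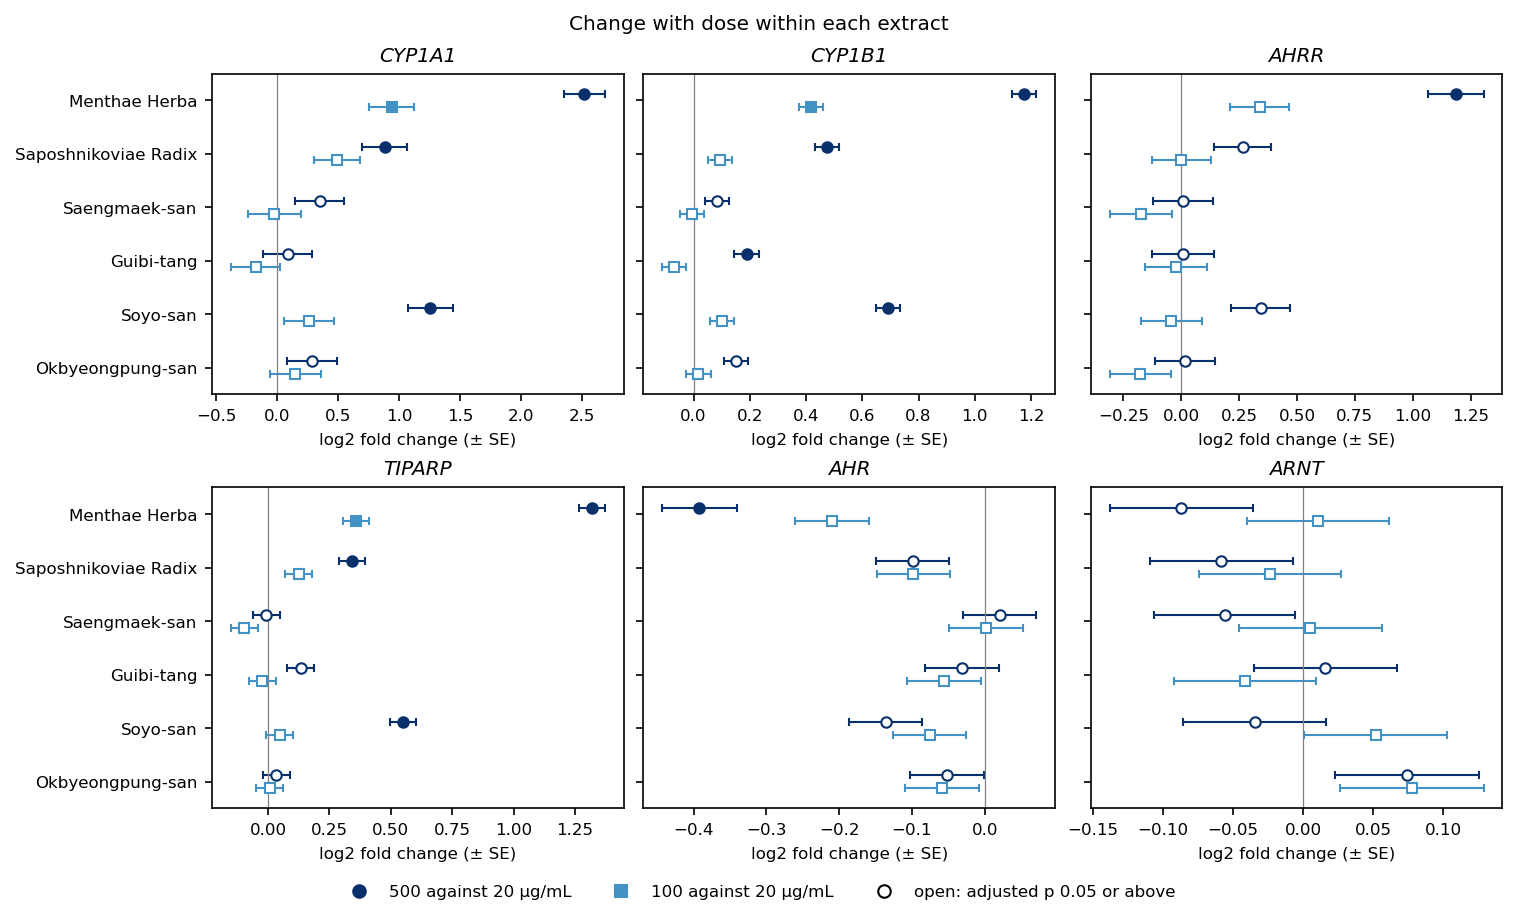
Log2 fold change with its SE (x axis, a scale of its own for each gene) of 500 against 20 µg/mL (circles) and 100 against 20 µg/mL (squares) in each extract (y axis), from the edgeR fit, with filled symbols at an adjusted p under 0.05. Menthae Herba has filled circles for CYP1A1 (2.52), CYP1B1 (1.18), AHRR (1.19), TIPARP (1.32) and AHR (-0.39), and ARNT has open symbols throughout.

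The change from 20 to 500 µg/mL was then compared between extracts in the same fit, which tests the difference of the changes itself. For all 4 of CYP1A1, CYP1B1, AHRR and TIPARP the Menthae Herba change was larger than that of each of the other 5 extracts. The counts were 4 members higher and 0 lower against Saposhnikoviae Radix, beside 0.197% of all genes called, and 4 higher and 0 lower against Soyo-san, beside 0.296%. They were 4 higher and 1 lower, AHR, against each of the other 3, beside 0.568% (Saengmaek-san), 0.997% (Guibi-tang) and 0.806% (Okbyeongpung-san) of all genes. The smallest of the CYP1A1 differences was from Soyo-san, 1.26 ± 0.254 on the log2 scale (adjusted p = 0.005517), and without Soyo-san 20 replicate 2 it was 1.096 (adjusted p = 0.09). For AHRR the difference from Soyo-san was 0.84 ± 0.176 (adjusted p = 0.008848), and without Menthae Herba 500 replicate 1 it was 0.77 (adjusted p = 0.0527). TIPARP differed between these extracts by 0.77 ± 0.0741 (adjusted p = 1.097e-09) and CYP1B1 by 0.48 ± 0.0602 (adjusted p = 8.15e-07).

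Okbyeongpung-san and Saposhnikoviae Radix, the decoction and the herb it contains, differed in 1 member, with 0 higher and 1 lower, beside 0.0464% of all genes. The CYP1B1 change was smaller in the decoction by 0.32 on the log2 scale (-0.32 ± 0.0607, adjusted p = 0.009003). That call was lost without Saposhnikoviae Radix 500 replicate 1 (adjusted p = 0.06), Saposhnikoviae Radix 20 replicate 2 (0.0581) or 3 (0.0724) and Okbyeongpung-san 500 replicate 1 (0.0749). TIPARP differed by -0.31 ± 0.0761 without a call (adjusted p = 0.236), and it was called without Saposhnikoviae Radix 20 replicate 1 (-0.38, adjusted p = 0.0393). The CYP1A1 difference was -0.59 ± 0.275 (95% interval -1.13 to -0.05, adjusted p = 1).

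Soshiho-tang had 1 library at each dose, all after the step in mitochondrial share, so there was no test and no replicate check. The intervals given for it are exact Clopper-Pearson 95% intervals, which cover counting error only. CYP1A1 had 3.95 CPM (3.18 to 4.85) at 500, 1.96 CPM (1.43 to 2.61) at 100 and 2.78 CPM (2.13 to 3.56) at 20 µg/mL. CYP1B1 had 180.0, 129 and 148 CPM and TIPARP 78.4, 48.5 and 52.7 CPM at the same doses. For these 3 genes every library lay above all vehicle libraries, and in each the 100 µg/mL library was lower than the 20 µg/mL library. The intervals at 100 and 20 overlapped for CYP1A1 and for TIPARP (45.75 to 51.43 and 49.74 to 55.81 CPM). For CYP1B1 they were apart (124.6 to 133.8 and 143 to 153.2 CPM). Whether the values follow the labelled dose cannot be judged from 1 library per dose. At 500 µg/mL these 3 genes were at 3.89, 1.88 and 2.0 times the vehicle mean. AHRR did not go with them, at 4.78 CPM (3.93 to 5.76), 4.3 CPM (3.5 to 5.22) and 5.02 CPM (4.13 to 6.04), inside the vehicle range of 4.2 to 5.47 CPM. AHR had 64.9, 65.4 and 60.6 CPM, the last below the vehicle range. ARNT had 45.94, 43.34 and 42.54 CPM, the first above the vehicle range. How many of all genes lay above every vehicle library in Soshiho-tang was not counted. At 20 µg/mL the CYP1B1 level of Soshiho-tang lay above the 18 libraries of the other extracts at that dose, which ran from 79.9 to 102.4 CPM.

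**Figure D3:**
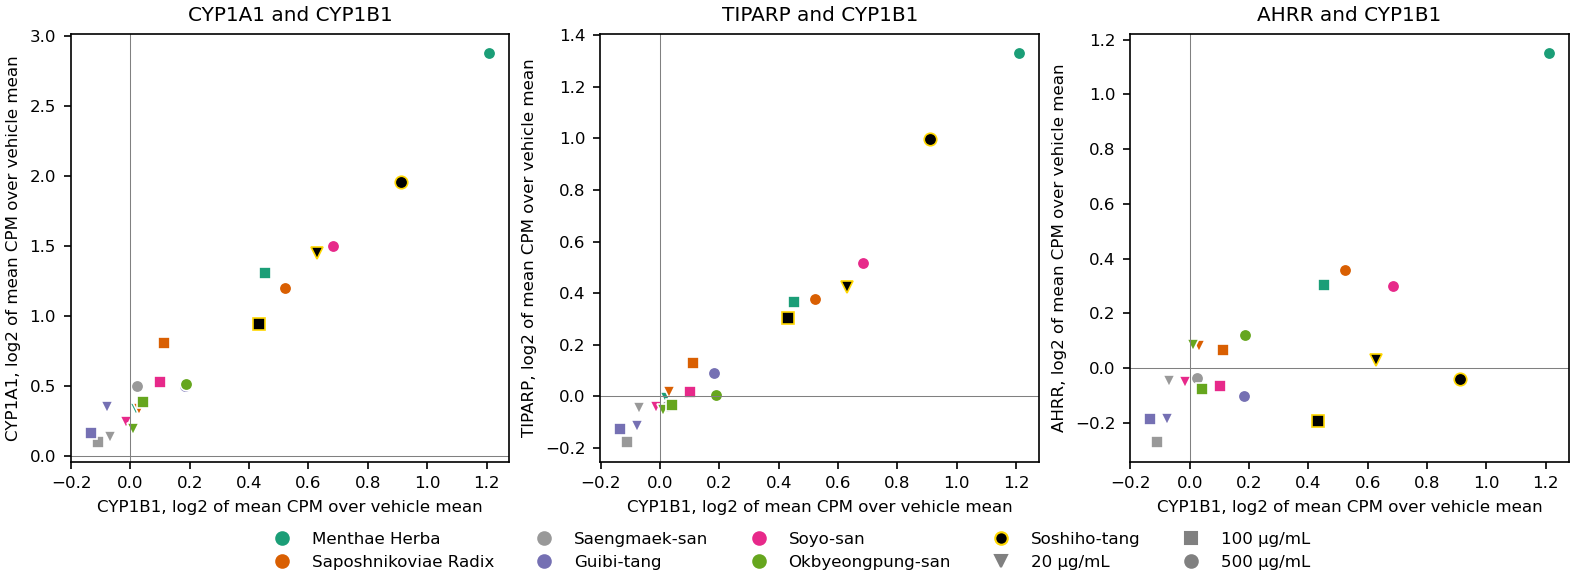
Each point is 1 extract and dose, as the log2 ratio of its mean CPM to the vehicle mean, with CYP1B1 on the x axis and CYP1A1, TIPARP or AHRR on the y axis (Soshiho-tang points, outlined in gold, are single libraries). CYP1A1 and TIPARP rise along with CYP1B1 over the groups, and in the AHRR panel the Soshiho-tang point at 500 µg/mL stands for 0.972 times the vehicle mean of AHRR.

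Some members overlap other genes, and whether the counting used strand is not given in the sources used here. CYP1B1-AS1, on the strand opposite CYP1B1, had 0.342 CPM in vehicle and 0.59 CPM with Menthae Herba at 500 (log2 fold change 0.77, adjusted p = 0.278), and TIPARP-AS1, on the strand opposite TIPARP, had 0.24 and 0.294 CPM (0.23, adjusted p = 0.836). Both opposite-strand genes were under 1 CPM in these 2 groups. PDCD6, on the same strand as AHRR and overlapping its start, had 78.7 and 79.0 CPM (-0.04, adjusted p = 0.847), and RMDN2, opposite CYP1B1, had 3.26 and 3.31 CPM (-0.02, adjusted p = 0.963). Mean AHRR levels in the same 2 groups were 4.915 and 10.91 CPM. Reads shared between AHRR and the much more abundant PDCD6 could be split by the counting, and the part of this in the AHRR rise was not tested.

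Genes outside the members that respond to AhR in various cells were mostly not called. Of 14 such genes 11 passed the filter on low counts. CYP1A2, SERPINB2 and IDO1 did not, with at most 0.0885, 0.0947 and 0.0851 CPM in any library. With Menthae Herba at 500 against 20 µg/mL, 0 of the 11 were higher and 1 was lower, beside 2.43% of all genes called: NEDD9, a focal adhesion scaffold (-0.27 ± 0.059, adjusted p = 0.003218). The median log2 fold change of the 11 was -0.0028, and over all genes tested -0.0012. NQO1 and ALDH3A1, an NADPH quinone reductase and an aldehyde dehydrogenase, differed by 0.08 ± 0.0654 (adjusted p = 0.778) and 0.16 ± 0.0568 (adjusted p = 0.146). Both are abundant in A549, up to 1730 and 912 CPM.

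In Soyo-san at 500 against 20, 1 of the 11 was higher, beside 0.614% of all genes: EREG, an EGF-family ligand (0.27 ± 0.0499, adjusted p = 0.001019). In Guibi-tang 1 was lower, beside 0.997% of all genes: ALDH3A1 (-0.23 ± 0.0569, adjusted p = 0.0299), a call lost without Guibi-tang 500 replicate 1 (adjusted p = 0.0556) or 2 (0.309) and Guibi-tang 20 replicate 2 (0.17) or 3 (0.098). Against vehicle the calls at 500 were NEDD9 with Menthae Herba (-0.20, adjusted p = 0.0311) and with Okbyeongpung-san (0.20, adjusted p = 0.042), ALDH3A1 with Guibi-tang (-0.34, adjusted p = 6.554e-05) and EREG with Soyo-san (0.26, adjusted p = 0.0004908). SLC7A5, a large neutral amino acid transporter, was also lower with Saengmaek-san (-0.14, adjusted p = 0.048), Guibi-tang (-0.14, adjusted p = 0.006861) and Soyo-san (-0.11, adjusted p = 0.0464). Both NEDD9 calls against vehicle were lost in each of the 6 fits without 1 library, with adjusted p from 0.0561 to 0.13 for Menthae Herba and 0.0745 to 0.169 for Okbyeongpung-san. Those of SLC7A5 were lost in 5 of 6 such fits for Saengmaek-san (all but without Saengmaek-san 500 replicate 1, adjusted p up to 0.358) and for Soyo-san (all but without Soyo-san 500 replicate 3, up to 0.276). The SLC7A5 call in Guibi-tang was lost with no filter on low counts (adjusted p = 0.161) and with only the groups compared (0.152). SLC7A5 was not called at 500 against 20 in any of these extracts, all of which had libraries after the step in mitochondrial share. The shares of all genes called at 500 against vehicle were 6.77% (Menthae Herba), 3.39% (Okbyeongpung-san), 4.42% (Guibi-tang), 6.03% (Soyo-san) and 0.614% (Saengmaek-san).

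Of 8 receptor chaperones and related bHLH-PAS genes, 0 were higher and 1 was lower with Menthae Herba at 500 against 20, beside 2.43% of all genes: EPAS1, which encodes the hypoxia factor HIF-2 alpha (-0.29 ± 0.0476, adjusted p = 4.299e-05). With Guibi-tang, where 0.997% of all genes were called, EPAS1 was the 1 called and was higher (0.19 ± 0.0473, adjusted p = 0.0287), a call lost without Guibi-tang 500 replicate 2 (adjusted p = 0.0543) or 3 (0.139) and Guibi-tang 20 replicate 1 (0.117) or 3 (0.136). Against vehicle it was 0.27 ± 0.0472 (adjusted p = 0.0001359) in Guibi-tang and -0.29 ± 0.0475 (adjusted p = 2.814e-05) in Menthae Herba. HSP90AA1 and PTGES3, which encode HSP90 alpha and p23, differed by -0.01 and 0.03 with Menthae Herba at 500 against 20. With Soyo-san against vehicle ARNT2 was higher (0.22 ± 0.0495, adjusted p = 0.004197) and HSP90AB1 lower (-0.16 ± 0.0369, adjusted p = 0.004247), and neither was called at 500 against 20. At 500 against vehicle 6.77% of all genes were called with Menthae Herba, 4.42% with Guibi-tang and 6.03% with Soyo-san.

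The NRF2 pathway, which shares NQO1 with AhR, was followed through 8 further genes. With Menthae Herba at 500 against 20, 3 of 8 were higher and 0 lower, beside 2.43% of all genes called. They were HMOX1, heme oxygenase 1 (0.55 ± 0.0427, adjusted p = 2.477e-13), and the glutamate-cysteine ligase subunits GCLM (0.20 ± 0.0443, adjusted p = 0.003022) and GCLC (0.18 ± 0.0289, adjusted p = 3.092e-05), and the median of the 8 was 0.04 on the log2 scale. HMOX1 was the only one called in Guibi-tang (0.35 ± 0.0429, adjusted p = 2.492e-07, beside 0.997% of all genes) and in Soyo-san (0.23 ± 0.043, adjusted p = 0.001389, beside 0.614%). With only the groups compared both were lost (adjusted p = 0.0532 and 0.0868), and with no filter on low counts so was GCLC in Menthae Herba (0.0789). Against vehicle at 500 Menthae Herba had the same 3 higher and OSGIN1 lower (-0.20, adjusted p = 0.008175; 0.0549 without Menthae Herba 500 replicate 2). Soyo-san against vehicle had GCLM higher (0.14, adjusted p = 0.0497, lost in each of the 6 fits without 1 library) and TXNRD1 (-0.38), SRXN1 (-0.21) and OSGIN1 (-0.25) lower. The SRXN1 call was lost in 5 of 6 such fits, all but without Soyo-san 500 replicate 3 (adjusted p up to 0.208). None of GCLM, TXNRD1, SRXN1 and OSGIN1 was called in Soyo-san at 500 against 20. Soyo-san lay wholly after the step in mitochondrial share, and vehicle before it. The shares of all genes called at 500 against vehicle were 6.77% (Menthae Herba), 6.03% (Soyo-san), 1.56% (Saposhnikoviae Radix), 4.42% (Guibi-tang) and 0.614% (Saengmaek-san). HMOX1 was higher against vehicle with Saposhnikoviae Radix (0.20, adjusted p = 0.006975) and Guibi-tang (0.33, adjusted p = 5.682e-07). The former adjusted p was 0.0541 without vehicle replicate 3 and 0.0585 without Saposhnikoviae Radix 500 replicate 1. OSGIN1 was lower with Saengmaek-san (-0.20, adjusted p = 0.047, lost in 5 of 6 fits without 1 library, all but without Saengmaek-san 500 replicate 1).

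**Figure D4:**
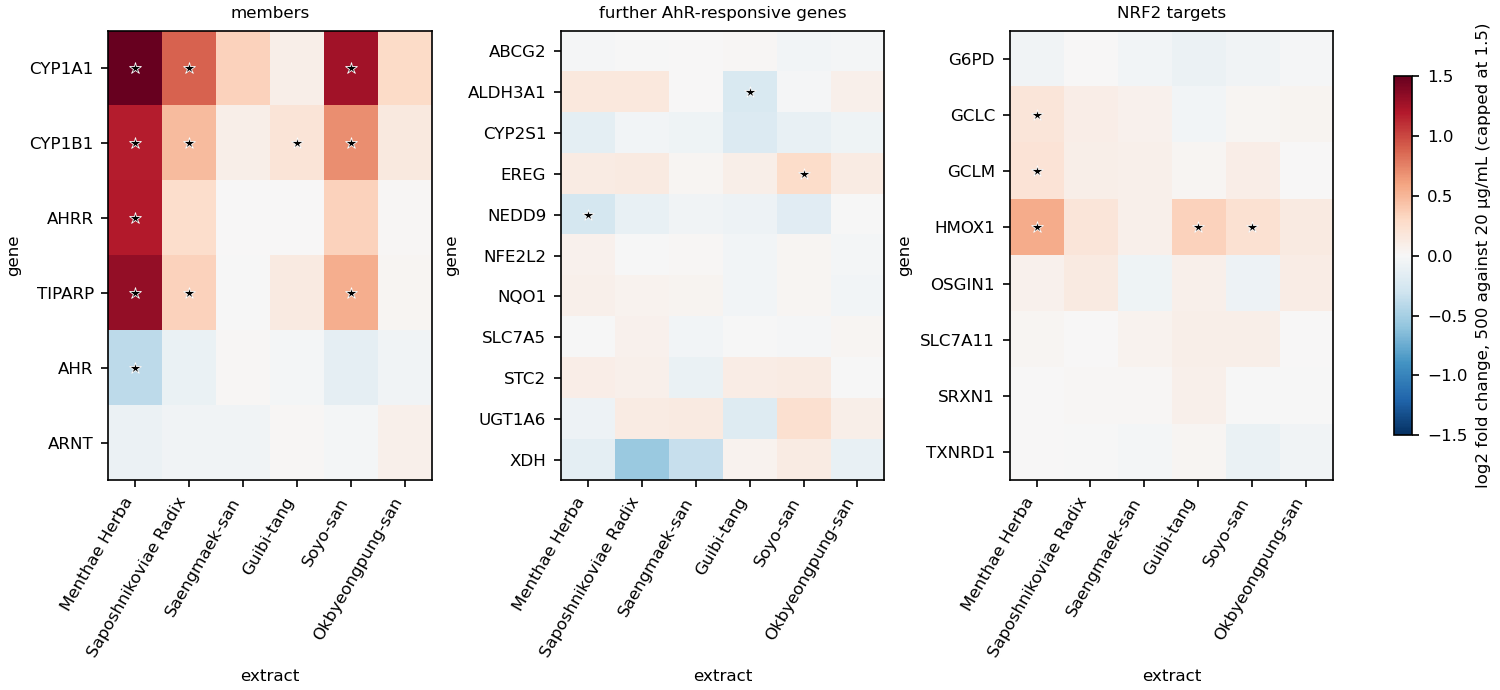
Log2 fold change of 500 against 20 µg/mL (colour, capped at 1.5 in either direction) for the 6 members, the further AhR-responsive genes that passed the filter and the NRF2 genes (y axis) in 6 extracts (x axis), with stars at an adjusted p under 0.05. Among the plotted genes outside the members the largest called value is HMOX1 with Menthae Herba (0.55), and XDH, the bluest cell of the plot with Saposhnikoviae Radix, did not exceed 2.43 CPM and carries no star.

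The pattern over doses and extracts was also compared between genes. It was the mean log2 CPM at 500 minus 20 and at 100 minus 20 in each of the 6 extracts, 12 values per gene, compared by Pearson r over 13012 genes with a mean of at least 1 CPM. For CYP1A1 the 5 most alike were TIPARP (r = 0.9748), CYP1B1 (0.9728), AHRR (0.9543), CDC42EP3 (0.9442) and CBS (0.9414). For CYP1B1 they were TIPARP (0.9787), CYP1A1 (0.9728), AHRR (0.9575), ROR1 (0.9444) and CYFIP2 (0.9426). AHR had r = -0.89 with CYP1A1 and -0.82 with CYP1B1, and ARNT -0.43 and -0.36. The 12 values share the 20 µg/mL groups, and the Menthae Herba value at 500 lies far from the rest. By rank the likeness was lower: with Spearman's rho TIPARP was 23rd for CYP1A1 (0.839) and 6th for CYP1B1 (0.923), and AHRR 156th and 45th. CYP1B1 was 32nd for CYP1A1 and CYP1A1 91st for CYP1B1 (0.825).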

How the data were processed

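RNA of 60 A549 libraries was sequenced as directional 100 bp paired-end libraries, per the labels' protocols. The submitters' processing notes name FastQC 0.11.9, Trim Galore 0.6.5, STAR 2.7.3a and RSEM 1.3.3 on hg38 (GRCh38). The authors deposited RSEM expected counts per gene, of which 10.5% were not whole, and these were rounded. The annotation release and the strand setting are not given in the sources used here. Groups are extract and dose as the labels give them. The labels do not say whether replicates were separate cultures, so a p-value here reflects the spread of these libraries, which may be technical. Within a group the libraries differed by more than sampling noise (chi-square per degree of freedom 1.85 to 66.4 over 57 pairs).

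The 57 libraries of the 19 groups of 3 were fitted together in R 4.3.3 with edgeR 4.0.16 (limma 3.58.1 beneath it), using TMM scaling, the filterByExpr filter and the quasi-likelihood test without robust estimation. There were 36 contrasts and Benjamini-Hochberg adjustment over 17256 genes in each. Fold changes are on edgeR's log2 scale. SEs come from the quasi-likelihood statistic, and 95% intervals are 1.96 SE to each side. The code was tested on simulated data. Alternatives were DESeq2 1.42.0, other scaling, filters, library sets, a replicate block and leaving out each library. Listed genes are named where called at 500 against vehicle or 20. 1 gene of the chaperone list is not reported here. The members and lists were chosen with earlier results of these data known. Promoter sequence is from RefSeq, positions from GENCODE 29.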

Additional observations from a re-analysis of the deposited data

Results flagged for a closer look

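The change from 20 to 500 µg/mL differed between extracts, by the test of the difference in the edgeR fit, in 24 cases. For CYP1A1 the Menthae Herba change exceeded that of Saposhnikoviae Radix by 1.64 on the log2 scale, Saengmaek-san by 2.17, Guibi-tang by 2.43, Soyo-san by 1.26 and Okbyeongpung-san by 2.23. For CYP1B1 the same differences were 0.70, 1.09, 0.99, 0.48 and 1.03, for AHRR 0.92, 1.18, 1.18, 0.84 and 1.17, and for TIPARP 0.98, 1.33, 1.19, 0.77 and 1.29. For AHR the Menthae Herba change was the more negative, by -0.41 from Saengmaek-san, -0.36 from Guibi-tang and -0.34 from Okbyeongpung-san. For CYP1B1 the Okbyeongpung-san change was smaller than that of Saposhnikoviae Radix (-0.32). All these comparisons with Menthae Herba share its 6 libraries at 500 and 20 µg/mL.

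The Soshiho-tang libraries, which enter no test, had 3.95 CPM of CYP1A1, 180.0 CPM of CYP1B1 and 78.4 CPM of TIPARP at 500 µg/mL, each above every vehicle library at all 3 doses. The share of all genes that lay above every vehicle library in these libraries was not counted. Dixon's test for a single outlying value was not run.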

How the results depend on the processing

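Over 1477 values of the members under other settings 1454 kept their side of the threshold, 11 lost a call and 12 gained one. A change of direction was counted only where either fit called the gene, and there were 0 of these. With 1 library left out the numbers were 1479 of 1512, 32, 1 and 0. Uncalled values could change direction: AHRR in Guibi-tang at 20 against vehicle was -0.125 and reached 0.1765 in another setting. RLE scaling and dropping the 37 mitochondrially encoded genes moved a log2 fold change by at most 0.0035 and 0.004. On TMM-scaled library sizes 20 of 132 mean levels moved by an SD or more. Member counts moved by over 1.5 times in these cases. Guibi-tang at 500 against vehicle went from 1 to 0 with no filter on low counts and when only the groups compared were fitted, and its 500 against 20 from 1 to 0 in these settings and within libraries 1 to 31 or 32 to 60. Saposhnikoviae Radix at 100 against vehicle went from 1 to 0 with no filter and to 2 within libraries 1 to 31. Soyo-san at 100 against vehicle went from 0 to 1 with DESeq2, and Okbyeongpung-san minus Saposhnikoviae Radix from 1 to 0 with no filter. With 1 library left out the counts ranged from 0 to 1 for both Guibi-tang comparisons and for Saposhnikoviae Radix at 100, and from 0 to 2 for Okbyeongpung-san minus Saposhnikoviae Radix. Smaller moves with 1 library left out were 4 to 3 for Menthae Herba at 100 against vehicle and for Menthae Herba minus Soyo-san, and 3 to 2 for Menthae Herba at 100 against 20 and Saposhnikoviae Radix at 500 against 20. Within libraries 1 to 31 Menthae Herba at 500 against vehicle went from 5 to 6 (ARNT) and Saposhnikoviae Radix from 3 to 4 (AHR). With only the groups compared Saposhnikoviae Radix and Soyo-san at 500 against vehicle went from 3 to 4 (AHR) and Saposhnikoviae Radix at 500 against 20 from 3 to 2 (CYP1A1, adjusted p = 0.121). In Menthae Herba at 100 against 20 these 2 settings lost CYP1A1 (0.0523 and 0.188) and gained AHR (0.004752 and 0.0312). The cause was not tested, other than fewer or more genes or libraries in the fit. With Spearman's rho 0 of the 5 genes most like CYP1A1 and 0 of the 5 most like CYP1B1 were shared with those by Pearson r. Over all pairs of groups, same-numbered libraries did not as a rule deviate together (median correlations -0.000772, 0.00211 and 0.0046 for the 3 numbers). The numbers were therefore not taken as pairs. Single pairs ran from -0.248 to 0.378, and Saengmaek-san replicate 3 stood apart at each dose. Pairing within an extract was not tested separately. A replicate block changed 1 member call: the AHR difference between Menthae Herba and Saposhnikoviae Radix (-0.29, adjusted p = 0.0731) passed with the block (-0.29, adjusted p = 0.0473), with DESeq2 (0.0292), within libraries 1 to 31 (0.001428) and with only the groups compared (0.008813). DESeq2 gave no adjusted p for 5 of 216 member values, all CYP1A1, so its 2 calls for Saposhnikoviae Radix at 500 against vehicle leave CYP1A1 unjudged. CYP1A1, with 18 to 186 counts per library, and AHRR limit the smallest difference that can be seen.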
